A study of Rattus norvegicus with 13 samples.

Results

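Schwann cell and myelin transcripts, chosen as a possible readout of nerve content at the limbus, were followed through 8 genes: Mbp, Pmp22, Prx, Mag, Sox10, S100b, Cdh19 and Ngfr. They were taken by gene symbol from the day 3 tables, and all 8 were found among 28357 named genes and lay among the 14762 that passed the filter on low counts. The tissue came from 2-month-old male wild-type Lewis rats, an albino strain, and the design text names limbal stem cell deficiency with growth of vessels into the cornea as the model. The 3 spironolactone libraries at day 3 came from rats that received this mineralocorticoid receptor antagonist at 25 mg per kg of body weight each day. The 3 vehicle libraries came from rats that received 90% olive oil with 10% DMSO. How the deficiency was produced is not described in the sample protocols, and rats outside the model are not analysed here. The protocol gives injections under the skin on each of 3 days before the tissue was taken, in the same words for both groups. The labels do not say whether each library is a separate animal or a pool, so the p-values measure only the spread between these libraries, which may be technical. The comparison asked whether transcripts of the nerve sheath differed between spironolactone and vehicle.

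Schwann cells are the glia of peripheral nerve, and the limbus is where the sensory nerves of the cornea enter. Myelinating Schwann cells wrap one axon in a sheath of compacted membrane, and non-myelinating Schwann cells hold bundles of thin axons without a sheath. Corneal axons lose their myelin near the limbus, so the clear cornea holds mostly unmyelinated fibres. Sox10 is the transcription factor that specifies the lineage, Egr2 is the factor that switches on the myelin programme, and the sheath is built from proteins such as myelin basic protein, periaxin and Pmp22.

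The sequences before the start of 3 members are given because Mag and Prx encode proteins of the myelin sheath whose levels, with those of Mbp, followed the same order among the vehicle libraries, and Pmp22 was the member whose groups did not overlap. Each is the stretch of 250 bases before the gene start in RefSeq, on assembly GRCr8, written 5′ to 3′ on the strand of the gene. Of the 8 members, 6 had an entry in that table, with 2 starts for Mbp, whose windows are not printed here. Capitals mark a match, on either strand, to the core letters bound by SOX factors, ACAAAG or ACAATG, or to an EGR core, GTGGGCG.
Mag, chr1:95291045-95291294, minus strand: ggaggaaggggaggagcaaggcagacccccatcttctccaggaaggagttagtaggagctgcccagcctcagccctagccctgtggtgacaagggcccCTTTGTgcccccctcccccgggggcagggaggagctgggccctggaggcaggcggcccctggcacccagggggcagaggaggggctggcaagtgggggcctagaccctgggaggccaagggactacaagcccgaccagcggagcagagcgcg
Prx, chr1:91914171-91914420, plus strand: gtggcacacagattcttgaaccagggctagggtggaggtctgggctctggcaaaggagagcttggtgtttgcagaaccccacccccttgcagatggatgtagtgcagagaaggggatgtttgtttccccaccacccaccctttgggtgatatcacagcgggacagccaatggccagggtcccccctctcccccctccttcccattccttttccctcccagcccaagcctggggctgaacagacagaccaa
Pmp22, chr10:48294682-48294931, plus strand: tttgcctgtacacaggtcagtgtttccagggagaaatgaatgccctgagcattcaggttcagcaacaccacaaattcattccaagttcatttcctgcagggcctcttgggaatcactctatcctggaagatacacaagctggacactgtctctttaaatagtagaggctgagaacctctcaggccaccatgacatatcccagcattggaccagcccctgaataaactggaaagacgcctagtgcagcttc

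The Mag window held 1 SOX core, on the opposite strand, 152 to 147 bases before the start, and the Prx and Pmp22 windows held none of these letters. Of the windows not printed, 1 of the 2 of Mbp held 3 SOX cores and those of S100b and Cdh19 held none. No window of a member held the EGR core. Of 33469 windows of the same length, 25.3% held at least 1 of the SOX cores and 6.27% held the EGR core, and the matches are a description of the letters only.

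The 6 libraries held 18176100 to 25311100 estimated counts each. In spironolactone replicate 3 the retina list summed to 272 CPM (counts scaled to a common library size), against 3076 to 5092 CPM in the other libraries, and vehicle replicate 3 had the most lens transcripts, at 428 CPM against 10.3 to 39.6 CPM. Skeletal muscle markers summed to 136 to 253 CPM with spironolactone and 456 to 1030 CPM with vehicle. Corneal and limbal epithelial markers went the other way, at 16481 to 19262 CPM against 9363 to 13103 CPM. The share of mitochondrial transcripts was 4.17% to 4.85% with spironolactone and 5.13% to 5.48% with vehicle.

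Per transcript length, the 8 genes spanned a wide range of levels, and the deposited TPM values (a share of all transcripts, corrected for length) set their order. Pmp22, which encodes a membrane protein of compact myelin that is also made by fibroblasts and epithelia, was highest, with a median of 146 TPM over the 6 libraries. S100b, a calcium-binding protein of glia that adipocytes and melanocytes also make, followed at 90.8 TPM, and Mbp, the myelin basic protein gene, at 28.8 TPM. Cdh19, a cadherin of the Schwann cell lineage, and Sox10 came next at 10.2 and 9.77 TPM, and their ranges over the libraries overlapped. Ngfr, the low-affinity neurotrophin receptor gene, and Prx, the periaxin gene, had medians of 5.95 and 4.71 TPM, and they too overlapped. Mag, which encodes an adhesion protein of the inner, axon-facing membrane of the sheath, was lowest at 0.34 TPM. The other neighbours in this order did not overlap in any library.

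**Figure D1:**
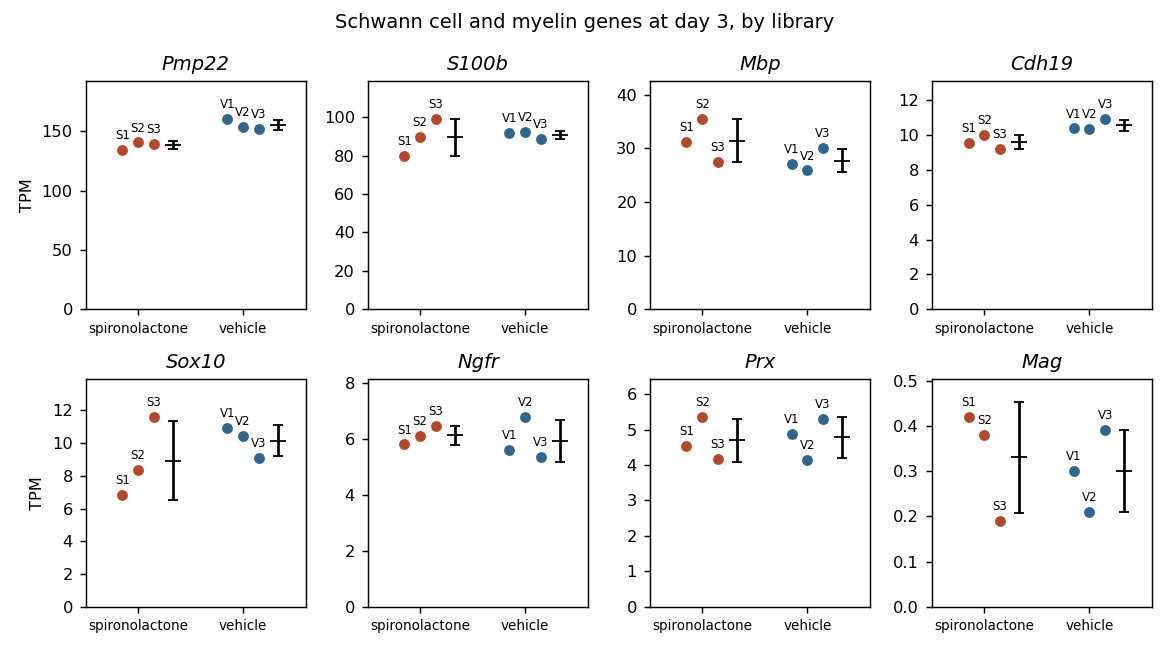
Each panel shows the TPM of 1 gene (vertical axis from 0) in the 3 spironolactone libraries (S1 to S3) and the 3 vehicle libraries (V1 to V3), with the mean and SD of each group (n = 3) as a bar to the right of the points. Pmp22 is the panel in which every spironolactone library, at 134 to 141 TPM, lies below every vehicle library, at 152 to 160 TPM; Cdh19 also separates on this scale, at 9.22 to 10.0 against 10.4 to 10.9 TPM.

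Spironolactone and vehicle did not differ detectably in any of the 8 genes at day 3. By edgeR's quasi-likelihood test with Benjamini-Hochberg adjustment, 0 of 8 passed an adjusted p of 0.05, where 0% of all genes tested passed. At an unadjusted p under 0.05 it was again 0 of 8, against 22.6% of all genes tested (12.2% higher and 10.4% lower with spironolactone). DESeq2 called none of the 7 for which it gave an adjusted p, against 9.1% of all genes, and limma-voom called 0 of 8. The libraries of the groups did not overlap in scaled CPM for 1 of 8, where 32% of all genes did not (16% higher and 16.1% lower). The median log2 fold change was 0.04 over the 8 genes and -0.01 over all genes tested, with 5 of 8 positive. Summed over the 8 genes, the level was 322 to 352 CPM with spironolactone and 342 to 349 CPM with vehicle, so the groups overlapped. Most of this sum was Pmp22 (150.8 to 170.7 CPM over the 6 libraries) and S100b (71.4 to 89.4 CPM), which other cells also make. Bulk RNA cannot tell fewer cells of a type from less RNA in each cell, and this holds for each value that follows.

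**Figure D2:**
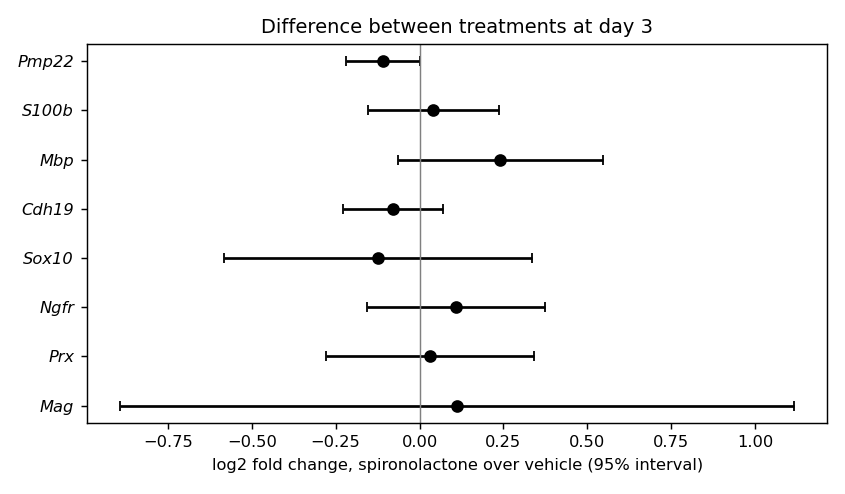
Points give edgeR's log2 fold change of spironolactone over vehicle for the 8 genes, ordered by level, and bars give the 95% interval (n = 3 per group). Every interval includes 0, although that of Pmp22 only just does, at -0.22 to 0.0008, and the interval is widest for Mag, at -0.89 to 1.12.

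Among the genes of the sheath itself, Mbp had the largest difference and Prx and Mag had none that could be seen at this depth. Mbp had 32.3, 37.1 and 28.3 CPM in the spironolactone libraries and 26.1, 24.9 and 31.7 CPM with vehicle. Spironolactone replicate 2 was the highest, and vehicle replicate 3 lay within the range of the spironolactone libraries. The log2 fold change of Mbp was 0.24 (SE 0.13), a fold of 1.18 with a 95% interval of 0.956 to 1.46, and edgeR's adjusted p was 0.309. The authors' table pools 5 transcripts under Mbp, so sheath forms and the longer Golli forms made outside the sheath are not told apart. The Mbp value was 0.14 without spironolactone replicate 2, 0.33 without spironolactone replicate 3 and 0.37 without vehicle replicate 3, and none of these passed. Without the libraries numbered 3 in both groups it was 0.45 (SE 0.094, edgeR adjusted p = 0.0441). Spironolactone replicate 3 was left out because it stood apart in retina genes, and vehicle replicate 3 because it did in lens genes. They were also the lowest spironolactone and the highest vehicle library for Mbp, so leaving them out had to widen the difference, with fewer libraries in each group. Over the alternatives run, the adjusted p of Mbp ranged from 0.0441, without the libraries numbered 3, to 0.586. Without those libraries 7.02% of all genes passed, and Mbp was the 1 member that did.

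Prx encodes periaxin, a scaffold protein that anchors the myelinating Schwann cell to its outer matrix and is also made in lens fibres. It had 13.9, 16.2 and 12.8 CPM with spironolactone and 14.1, 12.1 and 15.7 CPM with vehicle, so the groups overlapped fully. Its log2 fold change was 0.03 (SE 0.13, 95% interval -0.28 to 0.34, edgeR adjusted p = 0.901). Vehicle replicate 3, with the most lens transcripts, had the highest Prx of the vehicle libraries, and spironolactone replicate 2, with the fewest at 10.3 CPM, the highest of all 6. The part of lens in the Prx value was not tested. Mag rested on 10, 13 and 5 estimated counts with spironolactone and 9, 7 and 13 with vehicle. Its log2 fold change was 0.11 (SE 0.42), and the interval for the fold ran from 0.539 to 2.17, so a 2-fold difference in Mag was within the error at these counts. Mag's sign changed without spironolactone replicate 1 (-0.06), spironolactone replicate 2 (-0.04) or vehicle replicate 2 (-0.04), and that of Prx without spironolactone replicate 2 (-0.07) or vehicle replicate 2 (-0.05).

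Mbp, Prx and Mag shared an order among the libraries. In each of these genes vehicle replicate 3 was the highest and vehicle replicate 2 the lowest vehicle library, and spironolactone replicate 3 was the lowest spironolactone library. This order was noticed after the values were seen, with 3 libraries in each group, and it is a description. Pmp22, also a protein of the sheath, did not follow it. Its highest libraries were spironolactone replicate 3, at 157.7 CPM, and vehicle replicate 1, at 170.7 CPM, although vehicle replicate 2 was its lowest vehicle library too. The lineage factor Sox10 had another order, with spironolactone replicate 3 the highest of its group and vehicle replicate 3 the lowest of its own. The plot of values around each gene's mean shows these patterns.

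**Figure D3:**
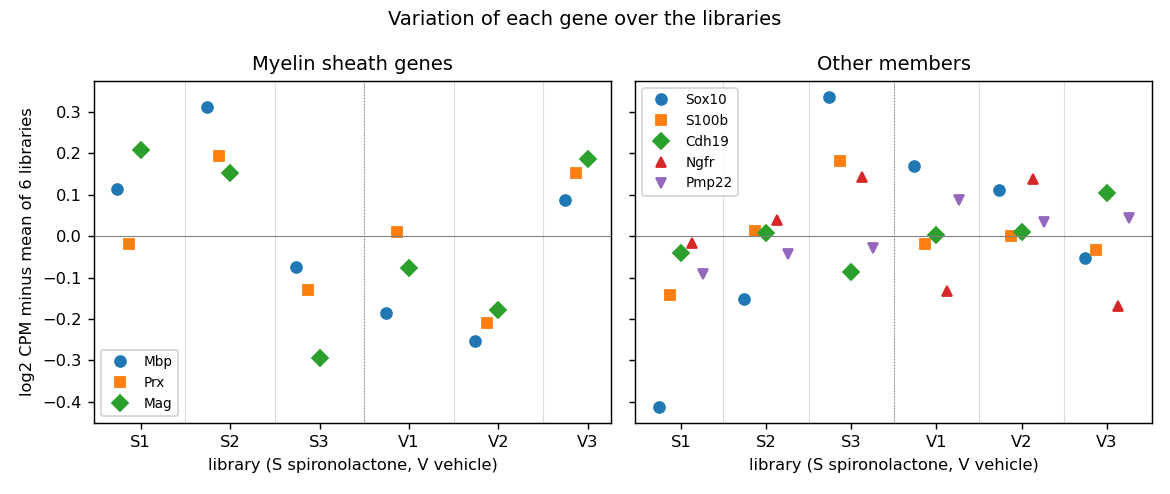
Each point is 1 gene in 1 library, as log2 of CPM plus 0.5, minus the mean of that gene over the 6 libraries. S1 to S3 are spironolactone and V1 to V3 vehicle. The 0.5 CPM added narrows the spread of genes at low CPM, such as Mag. On the left Mbp ranges from -0.25 in V2 to 0.31 in S2, and Prx and Mag lie on the same side of 0 as Mbp in S2, S3, V2 and V3; on the right Sox10 runs from -0.41 in S1 to 0.34 in S3 while Cdh19 and Pmp22 stay close to 0.

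Pmp22 had the narrowest error of the members and the only groups without overlap in scaled CPM. It had 150.8, 155.9 and 157.7 CPM with spironolactone and 170.7, 164.6 and 165.6 CPM with vehicle. Every spironolactone library lay below every vehicle library, as for 16.1% of all genes tested. The log2 fold change was -0.11 (SE 0.047, 95% interval -0.22 to 0.0008), a fold of 0.927, and edgeR's p was 0.0512 before and 0.224 after adjustment over all genes. Pmp22 is not restricted to nerve. Fibroblast markers, another source of its transcript, summed to 15005 to 16447 CPM with spironolactone and 15285 to 17318 CPM with vehicle, and blood endothelial markers to 337 to 453 against 465 to 619 CPM. Epithelial markers, also from cells that make Pmp22, went the other way, at 16481 to 19262 CPM with spironolactone against 9363 to 13103 CPM. Whether cells other than Schwann cells had a part in the Pmp22 value was not tested.

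The lineage markers Sox10 and Cdh19 both overlapped between the groups, with a wide spread for Sox10 and a narrow one for Cdh19. Sox10 had 13.4, 16.1 and 22.8 CPM with spironolactone and 20.2, 19.4 and 17.3 CPM with vehicle, so that the spironolactone libraries held both the lowest and the highest value. Its log2 fold change was -0.12 (SE 0.19, 95% interval -0.58 to 0.34, edgeR adjusted p = 0.724), and it was 0.03 without spironolactone replicate 1 and -0.36 without spironolactone replicate 3. Cdh19 had 27.6, 28.6 and 26.8 CPM with spironolactone and 28.5, 28.6 and 30.6 CPM with vehicle. Spironolactone replicate 2 lay just above vehicle replicate 1, so the groups overlapped. The log2 fold change of Cdh19 was -0.08 (SE 0.063), and its 95% interval for the fold, 0.853 to 1.05, was among the tightest of the 8 genes.

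Sox10 is also a factor of melanocytes, which remain in an albino eye without making pigment. The 8 melanocyte markers, Sox10 among them, summed to 3014, 3795 and 3725 CPM with spironolactone and 3187, 3250 and 3486 CPM with vehicle. Tyrp1, Dct and Pmel, enzymes and a scaffold of the pigment granule that retinal pigment epithelium also makes, had 1538 ± 112, 906 ± 110 and 650 ± 178 CPM (SD, n = 3) with spironolactone. With vehicle they had 1504 ± 62.3, 844 ± 8.39 and 558 ± 101 CPM (SD, n = 3). Spironolactone replicate 1 was the lowest library for the melanocyte sum and for Sox10, but spironolactone replicate 2 had the highest melanocyte sum and the second-lowest Sox10, and among the vehicle libraries the orders were opposite. The part of melanocytes in the Sox10 value was not tested. Log2 of CPM plus 0.5 was centred over the 6 libraries, and genes were compared with Sox10 by the root mean square difference. The genes most like Sox10 were Tmem119 (0.059), Tmem121 (0.063), Fgfrl1 (0.071), Pax9 (0.079) and Zfp617 (0.081). The 0.5 CPM added narrows the spread of genes at low CPM, such as Pax9, at 0.225 to 0.65 CPM. Of the other members S100b was nearest, at 0.17, and Mag farthest, at 0.42.

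S100b and Ngfr, the markers that myelinating and non-myelinating glia share with other cells, also overlapped between the groups. S100b had 71.4, 79.5 and 89.4 CPM with spironolactone and 77.8, 78.8 and 77.0 CPM with vehicle. The vehicle libraries lay close together and inside the spironolactone range. The log2 fold change was 0.04 (SE 0.083, 95% interval -0.15 to 0.24, edgeR adjusted p = 0.788), and its sign changed without spironolactone replicate 3, at -0.04. The 8 adipocyte markers summed to 29.4 to 34.2 CPM with spironolactone and 34.3 to 43.2 CPM with vehicle. Among them Lep had 0 counts in all 6 libraries, Adipoq 1 to 4 and Plin1 0 to 2, while Cfd, Lipe and Fabp4, which other cells also make, were at 17.4, 10.5 and 1.83 CPM with spironolactone and 20.4, 13.8 and 4.25 CPM with vehicle (means, n = 3). All 4 adipocyte markers tested were negative, and DESeq2 called Fabp4 (log2 fold change -1.22, adjusted p = 0.00495). The part of adipocytes in the S100b value was not tested.

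Ngfr is made by non-myelinating and injured Schwann cells and by some basal epithelial and stromal cells. It had 12.2, 12.7 and 13.7 CPM with spironolactone and 11.2, 13.7 and 11.0 CPM with vehicle. Vehicle replicate 2 lay with the spironolactone libraries and the other vehicle libraries below them. The log2 fold change was 0.11 (SE 0.11, 95% interval -0.16 to 0.37, edgeR adjusted p = 0.575). With 1 library left out it ranged from 0.06 without spironolactone replicate 3 to 0.23 without vehicle replicate 2, when the groups no longer overlapped. Epithelial markers were higher in the spironolactone libraries (16481 to 19262 against 9363 to 13103 CPM), and their part in the Ngfr value was not tested.

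Mbp and Mag are also myelin genes of oligodendrocytes, the glia of the brain and optic nerve. The 9 oligodendrocyte markers, Mbp and Mag among them, summed to 46.6 to 58.1 CPM with spironolactone and 36.5 to 51.5 CPM with vehicle. Of these, Mobp, Opalin and Olig2 had 0 counts in all 6 libraries and Mog had 0 to 2. Ermn and Cldn11, the latter also an epithelial and stromal gene, were present at 9.75 and 7.66 CPM with spironolactone and 10.04 and 3.84 CPM with vehicle (means, n = 3). The part of oligodendrocytes in the Mbp and Mag values was not tested. Set against Sox10 within each library, as log2 TPM with 0.1 TPM added, no difference between groups passed for the other 7 members. Mbp relative to Sox10 was 1.83 ± 0.51 with spironolactone and 1.44 ± 0.24 with vehicle, a difference of 0.39 (SD, n = 3, exact two-sided permutation test p = 0.4, adjusted p = 0.9 over 7 ratios). Set against Cdh19 instead, Mbp was at 1.69 ± 0.12 and 1.38 ± 0.071 (SD, n = 3), a difference of 0.32. All 3 spironolactone libraries, at 1.57 to 1.81, then lay above the vehicle libraries, at 1.31 to 1.45 (exact two-sided permutation test p = 0.1, adjusted p = 0.7 over 7 ratios). Cdh19 itself separated the other way in TPM, at 9.22 to 10.0 with spironolactone and 10.4 to 10.9 with vehicle. Mbp overlapped in TPM, at 27.6 to 35.5 against 25.9 to 30.1, so the ratio separated although Mbp did not. The exact p of the other ratios was 0.3 to 0.9 against Sox10 and 0.3 to 0.8 against Cdh19, and 0.1 is the smallest that 3 against 3 libraries allow.

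The wider set of peripheral nerve genes, 98 tested of 110 on 7 lists besides the members, was tested in the same fit. EdgeR passed 0 of 98 at an adjusted p of 0.05. At an unadjusted p under 0.05 it was 16 higher and 7 lower, or 23.5% of 98 against 22.6% of all genes. DESeq2 called 9 higher and 5 lower, 14.3% against 9.1%, and limma-voom called 0. The groups did not overlap for 15 higher and 20 lower, 35.7% against 32%. The lists were chosen with earlier results of these data known.

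**Figure D4:**
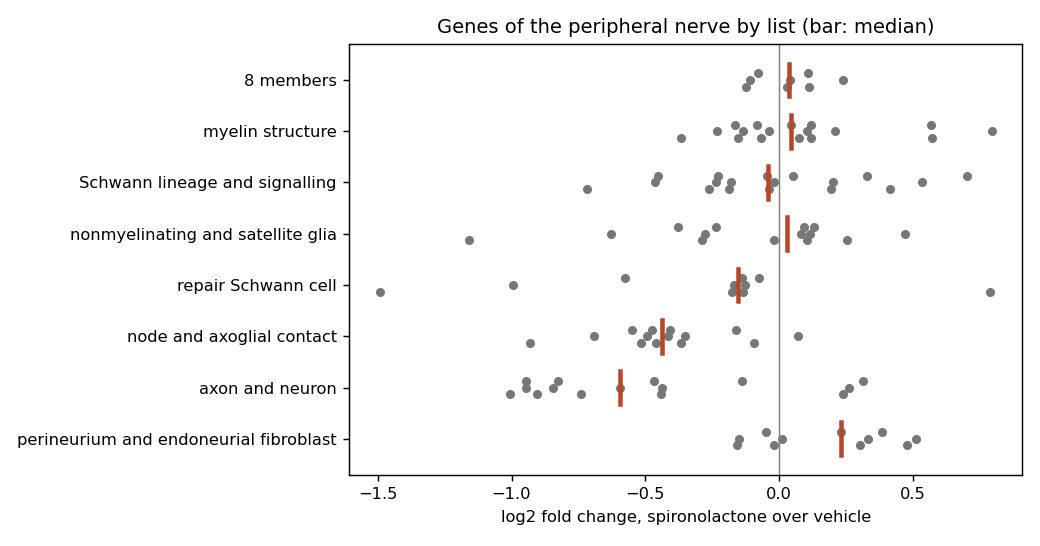
Each point is the log2 fold change of 1 tested gene (spironolactone over vehicle) and each bar the median of its list, with the 8 members in the top row. The members cluster near 0 with a median of 0.04, and the lists of axon and neuron genes (median -0.60) and of node and axoglial contact genes (median -0.44) lie to the left.

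Of the other myelin genes, 17 of 19 were tested, with 9 positive and a median log2 fold change of 0.05; 4 were higher and 0 lower at an unadjusted p under 0.05, where 12.2% of all genes were higher and 10.4% lower. The 4 were Pllp, Mal, Cd9 and Dag1. Mal, a membrane raft protein of myelin and of epithelial apical membranes, had 507, 579 and 491 CPM with spironolactone and 241, 242 and 425 CPM with vehicle (log2 fold change 0.80, SE 0.24, edgeR adjusted p = 0.136). Pllp, a related raft protein, had 50.5 ± 7.10 CPM against 34.0 ± 6.47 CPM (SD, n = 3, log2 fold change 0.57, edgeR adjusted p = 0.115), and DESeq2 called it at an adjusted p of 0.0147. Cd9, a tetraspanin, and Dag1, the dystroglycan gene, had log2 fold changes of 0.21 (0.14 without spironolactone replicate 3) and 0.12. Mal, Pllp, Cd9 and Dag1 are also epithelial genes, and the epithelial sum was higher in the same libraries, whose part in these values was not tested. Cnp, an enzyme of the uncompacted parts of the sheath, named after its values were seen, was at 0.05 (SE 0.055).

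Among lineage factors and signalling genes, 18 tested of 19, 6 were higher and 2 lower at an unadjusted p under 0.05, where 12.2% of all genes were higher and 10.4% lower. The median of the list was -0.04. Egr2, the factor that turns on the myelin genes and that is also an early response gene of stromal and immune cells, had 4.11, 3.02 and 3.60 CPM with spironolactone and 6.10, 5.91 and 5.61 CPM with vehicle. All 3 spironolactone libraries lay below the vehicle libraries. The log2 fold change of Egr2 was -0.72 (SE 0.15, edgeR adjusted p = 0.0747), and DESeq2 called it at an adjusted p of 0.0216. Mbp, Prx and Mag, which Egr2 is known to activate, were at 0.24, 0.03 and 0.11 on the log2 scale. Erbb3 and Erbb2 encode the receptor pair through which axonal neuregulin acts on Schwann cells, and both are also made by epithelia. Erbb3 had 209, 192 and 190 CPM against vehicle levels of 154, 158 and 158 CPM. Its log2 fold change was 0.33 (SE 0.055, edgeR adjusted p = 0.0649), and edgeR called it without vehicle replicate 3 (adjusted p = 0.0409) and without both libraries numbered 3 (adjusted p = 0.031). Over all alternatives its adjusted p ranged from 7.64e-05 with DESeq2 to 0.259 without vehicle replicate 2. Erbb2 was at 0.53 (SE 0.067, edgeR adjusted p = 0.0649) and Tfap2a, a neural crest and epithelial factor, at 0.42 (SE 0.093). DESeq2 called Erbb3, Erbb2 and Tfap2a as higher.

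The list of non-myelinating and satellite glia was balanced, with 7 of 14 tested genes positive and a median of 0.03. At an unadjusted p under 0.05, 2 were higher and 2 lower, where 12.2% of all genes were higher and 10.4% lower. Cadm4, an adhesion protein of the Schwann cell surface facing the axon, was at 0.47 (SE 0.10) on the log2 scale, and Entpd2, an ectonucleotidase of glia, at 0.26 (SE 0.081). Gpm6b, a membrane glycoprotein of glia and neurons, was at -0.24 (SE 0.082) and Sostdc1 at -0.29 (SE 0.11). Of these 4 only Cadm4 was called by DESeq2, which called 1 of the list and 9.1% of all genes in either direction. The epithelial marker sum was higher in the spironolactone libraries, and the part of epithelium in the Cadm4 value was not tested. In the list of injury-induced repair Schwann cell genes 9 of 10 tested were negative, with a median of -0.15. At an unadjusted p under 0.05 it was 0 of 10, against 22.6% of all genes. Jun, the factor that drives the repair state, was at -0.12 (SE 0.063) on the log2 scale and Artn, the ligand artemin, at 0.79 (SE 0.35). Without spironolactone replicate 3 they were at -0.08 and 0.41. Mcam, which vessel walls also express, was at -0.58 (SE 0.25). Uchl1, a neuronal ubiquitin hydrolase also listed with repair cells, had 13.2, 15.6 and 4.90 CPM with spironolactone and 23.5, 25.0 and 18.8 CPM with vehicle. Its log2 fold change was -0.99 (SE 0.41, edgeR adjusted p = 0.223). DESeq2 called 1 gene of this list, Uchl1, at an adjusted p of 0.0491, where it called 9.1% of all genes in either direction. Without spironolactone replicate 3 the log2 fold change of Uchl1 was -0.64. The retina list was also lowest in that library, at 272 CPM, and the part of retinal RNA in the Uchl1 value was not tested.

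Of 15 tested axon and neuron genes 0 had an unadjusted p under 0.05, against 22.6% of all genes. Log2 fold changes were negative for 12, with a median of -0.60 against -0.01 over all genes, and positive for Nefh, Trpv1 and Trpm8. Nefl, the light neurofilament gene, had 16.6, 18.8 and 1.65 CPM with spironolactone and 24.1, 21.9 and 23.8 CPM with vehicle. Spironolactone replicate 3 stood far below the others, as it did for the retina list, and axonal genes are also genes of retinal neurons. Without that library the median of the axon and neuron list was -0.30, and without the libraries numbered 3 it was -0.32. Gap43, a growth cone protein, had a log2 fold change of -0.44 (SE 0.20), Tubb3, the neuronal tubulin gene, -0.44 (SE 0.21) and Tac1, the substance P precursor of sensory neurons, -0.94 (SE 0.52). Trpv1, the capsaicin receptor gene, was at 0.31 (SE 0.18). Gap43 was at -0.25 without spironolactone replicate 2, Tubb3 at -0.67 without spironolactone replicate 1 and Tac1 at -0.49 without spironolactone replicate 3. The part of retinal RNA in the axonal values was not tested.

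Of 14 tested genes of the node and of axon to glia contact, 3 were lower at an unadjusted p under 0.05, where 10.4% of all genes were. EdgeR passed 0 of them after adjustment. Log2 fold changes were negative for 13, with a median of -0.44. Cadm1 had 62.0, 68.7 and 56.3 CPM with spironolactone and 81.7, 80.4 and 78.9 CPM with vehicle (log2 fold change -0.37, SE 0.077, edgeR adjusted p = 0.0747). Kcna2 and Kcna1, potassium channels beside the node, were at -0.47 (SE 0.15) and -0.69 (SE 0.31) on the log2 scale, and Epb41l3, a cytoskeletal linker of that region, -0.35 (SE 0.10). DESeq2 called Cadm1, Kcna2 and Epb41l3 as lower, 3 of 14 tested, where it called 9.1% of all genes in either direction. Spironolactone replicate 3 was the lowest library for Cadm1, Kcna2, Kcna1 and Epb41l3, and without it the median of the list was -0.25 and Kcna1 was at -0.43. That library was also the lowest for the retina list, at 272 CPM, and the part of retinal RNA in the values of this list was not tested. The list of perineurium and endoneurial fibroblast genes had 4 of 11 tested higher at an unadjusted p under 0.05, where 12.2% of all genes were, and a median of 0.23. Log2 fold changes were positive for 7 and negative for 4, which were Mfap5, Apod, Wif1 and Abca8. The 4 higher genes were Osr2 at 0.48 (SE 0.062), Itgb4 at 0.51 (SE 0.078), Cldn1 at 0.30 (SE 0.076) and Slc2a1 at 0.23 (SE 0.071). DESeq2 called these 4 of 11, where it called 9.1% of all genes in either direction. Itgb4, Cldn1 and Slc2a1 are also genes of corneal epithelium, whose marker sum was higher in the same libraries, and the part of epithelium in these values was not tested.

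**Figure D5:**
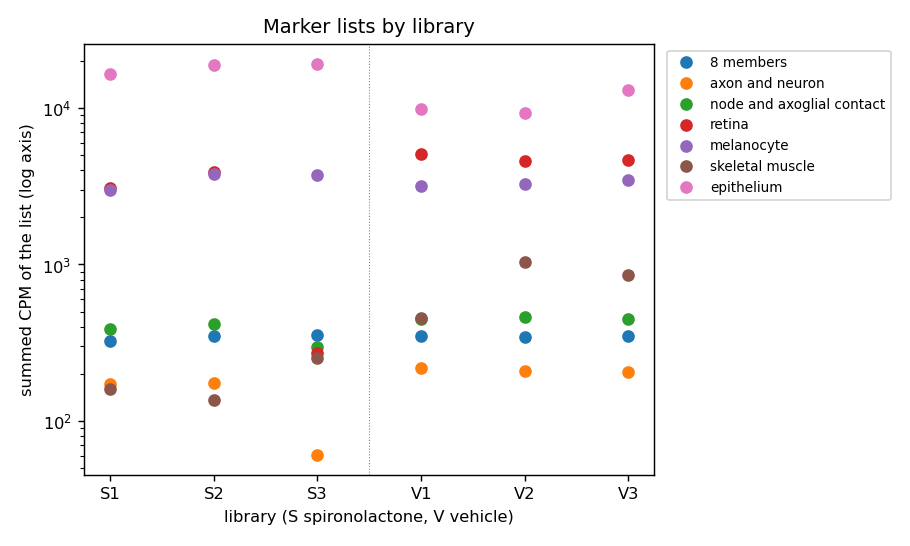
Points give the summed CPM (log axis) of each marker list in each of the 6 libraries, S1 to S3 with spironolactone and V1 to V3 with vehicle. The 8 members, whose sum is mostly Pmp22 and S100b, stay between 322 and 352 CPM. The retina list falls to 272 CPM in S3, where the axon and neuron list is at 60.3 CPM against 172 to 219 CPM elsewhere. The muscle and epithelial lists differ between the treatments.

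Muscle is a tissue that motor nerves supply, and its markers were several times lower in the spironolactone libraries. Acta1, Myh2 and Mylpf, genes of the contractile fibre, were at -1.98 (SE 0.35), -2.27 (SE 0.46) and -2.29 (SE 0.37) on the log2 scale. Over the same libraries the summed level of the 8 Schwann cell and myelin genes was 322 to 352 CPM with spironolactone against 342 to 349 CPM with vehicle. Most of that sum was Pmp22 and S100b, which other cells also make. The part of muscle and its nerves in the values of the 8 genes was not tested.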

How the data were processed

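RNA was sequenced from peripheral cornea and limboscleral tissue, and 6 day 3 libraries were used (spironolactone and vehicle, n = 3 each, grouped by title). The day 7 tables carry gene IDs that no source used here pairs with names and were not used. Tools listed in the submitters' processing notes are RSEM 1.2.28, STAR 2.5.3a, edgeR 3.28.0, DESeq2 1.26.0, Picard, DRAGEN, fastp and FastQC, and the builds are Rnor_6.0 and rn6; what each did is not stated there. The deposited tables hold the authors' estimated counts (expected counts) and TPM per gene with effective lengths, per the file headers; no source used here states a strand setting, so overlapping and antisense genes may share reads. Counts were rounded. A row that names no gene, with 0.12% to 0.181% of counts, was left out.

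Genes were kept by edgeR's filter with a minimum count of 10 and scaled by TMM. EdgeR 4.0.16 in R 4.3.3 gave robust quasi-likelihood tests with adjustment over all 14762 genes; SE is the log2 fold change over the square root of F, and 95% intervals use the test's degrees of freedom. Limma 3.58.1 (voom) and DESeq2 1.42.0 were alternatives, with others in the closing section; DESeq2 gave no adjusted p for 864 genes, Mag among them. Counting error limits the low counts most, as in Mag. The script was tested on simulated data. Within groups, libraries differed by a chi-square per gene of 7.9 to 23.2, above sampling noise.

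The members and lists were chosen with earlier results of these data known. Named genes are the 8 members, the 4 genes with the smallest p of each nerve list, the 5 genes nearest to Sox10 and the 3 most abundant markers of other cell types; other genes named were chosen after their values were seen.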

Additional observations from a re-analysis of the deposited data

How the results depend on the processing

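Of the 8 members, 1 passed an adjusted p of 0.05 in 1 of the alternatives run: Mbp, at 0.45 without the libraries numbered 3. Those were its lowest spironolactone and its highest vehicle library. The number of genes called by edgeR was 0, with 148 without a filter, 1040 without the libraries numbered 3 and 0 to 781 with 1 library left out; DESeq2 called 1344. Members at an unadjusted p under 0.05 numbered 1 (Pmp22) with limma-voom, with a filter of 1 CPM in 3 libraries and with effective-length offsets, 2 (Mbp and Sox10) without the libraries numbered 3, and 0 to 2 with 1 library left out. Members without overlap numbered 4 without the libraries numbered 3 and 2 to 3 with 1 left out. Other nerve-list genes lower at an unadjusted p under 0.05, 7 in the reported fit, numbered 14 by DESeq2, 11 by limma-voom, 22 without the libraries numbered 3 and 5 to 14 with 1 left out. For these counts of members and nerve-list genes, the share of all genes in the same fit is not given. Groups of fewer libraries also separate more easily, so the counts are not read as results about the members or lists.

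Signs changed for small values. With 1 library left out, the log2 fold change ranged from -0.068 to 0.14 for Prx, -0.058 to 0.39 for Mag, -0.36 to 0.034 for Sox10, -0.045 to 0.12 for S100b, -0.19 to 0.040 for Ermn, -0.0068 to 0.091 for Tyrp1, -0.088 to 0.042 for Col3a1, -0.14 to 0.064 for Col1a1, -0.014 to 0.074 for Dcn and -0.41 to 0.029 for Tmem121. Without the libraries numbered 3, S100b was at -0.048, Ermn at 0.060 (0.11 with effective-length offsets) and Col3a1 at 0.011. List medians ranged from -0.033 to 0.070 for myelin structure, -0.030 to 0.051 for non-myelinating glia (-0.019 without a filter) and -0.10 to -0.015 for Schwann lineage. The ratio to Sox10 ranged from -0.11 to 0.24 for Pmp22 (-0.032 against Cdh19), -0.037 to 0.76 for Mag and -0.10 to 0.31 for Cdh19. The cause of these changes was not tested, apart from fewer libraries in each left-out fit.

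With the replicate number as a block (replicate block), 0 members passed and the other nerve-list genes lower at an unadjusted p under 0.05 numbered 14. That count too is given without the share of all genes in the same fit. Libraries of the same number had deviations correlating at 0.11, -0.09 and 0.06, and 4 of 6 libraries correlated best with their own number. These values do not settle whether the numbers pair the libraries. The labels do not say that a number marks a shared animal, litter or batch, so the reported fit has no block.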
